A study of Homo sapiens with 9 samples.

Results

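The genes described here are 10 genes known for the differentiated epithelium of the intestine: CDX1, CDX2, HNF4A, VIL1, MUC2, TFF1, TFF3, LGALS4, CEACAM5 and CDH17. They are a list of names, drawn up with earlier results of these data known, out of 36337 gene names on the array, and every probe that the array design assigns to them was used, 16 of 50599. Gene expression was measured in RKO, an established human colorectal cancer cell line, with 9 Agilent arrays (SurePrint G3 Human GE v2, 1 colour). The siCONT group (2 arrays) received a control siRNA and, after 72 h, ethanol as mock for 24 h. The siUHRF1 group (2 arrays) received siRNA against UHRF1 and then mock, with siUHRF1-1 on array 1 and siUHRF1-2 on array 2, so its arrays differ in the siRNA as well as in the sample. In the siCONT + TSA and siUHRF1 + TSA groups (2 arrays each) the mock was replaced by 300 nM trichostatin A (TSA), an inhibitor of histone deacetylases, for 24 h. The 5-aza-dC group was 1 array of RKO cells given 1 µM 5-aza-2'-deoxycytidine, an inhibitor of DNA methyltransferases, for 72 h without any siRNA or mock. UHRF1 is a protein that helps to copy DNA methylation onto the new strand after replication. RKO is 1 cell line, and no normal intestinal tissue was analysed here, so all levels are those of cancer cells in culture.

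The intestinal epithelium renews itself from stem cells in the crypts, whose daughters become absorptive cells with a brush border or secretory cells such as the goblet cells that make mucus. CDX1, CDX2 and HNF4A are transcription factors of this program. VIL1 (villin) bundles actin in the brush border, CDH17 (liver-intestine cadherin) joins neighbouring cells, LGALS4 is an intestinal galectin, and CEACAM5 is carcinoembryonic antigen. MUC2 is the gel-forming mucin of goblet cells, and TFF1 and TFF3 are small trefoil peptides secreted with mucus, TFF3 mainly by goblet cells of the intestine and TFF1 mainly in the stomach. In RefSeq (GRCh38.p14) the 3 trefoil genes are neighbours on chromosome 21, with TFF2 between TFF3 and TFF1.

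The results turn on the probes of TFF3 and MUC2, whose probes did not move alike, so their sequences are shown in the array's own 5′ to 3′ order. The TFF3 probes lie on the minus strand of chromosome 21 in hg19, at chr21:43731777-43731813 (A_23_P393099, a 60-base probe of which the first 30 bases are shown), chr21:43733595-43733654 (A_33_P3334305, whole) and chr21:43735531-43735590 (A_24_P289208, the first 30 bases). The listed span of A_23_P393099 is 37 bases, shorter than the probe.
A_23_P393099: tgtccctttgctcccggcaagctttctgct
A_33_P3334305: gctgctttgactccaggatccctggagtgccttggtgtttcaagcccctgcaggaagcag
A_24_P289208: tccccaagcaaacaatccagagcagctgtg
The MUC2 probes that gave signal lie on the plus strand of chromosome 11 in hg19, at chr11:1092337-1092396 (A_33_P3401571) and chr11:1103558-1103831 (A_23_P256784). The second spans 274 bases of the genome for 60 bases of probe, so it crosses an intron, and it lies closer to the 3′ end of the gene.
A_33_P3401571: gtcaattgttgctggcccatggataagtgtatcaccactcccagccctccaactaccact
A_23_P256784: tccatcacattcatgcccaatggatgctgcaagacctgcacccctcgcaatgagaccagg
Since the treatments act on DNA methylation and histones, RefSeq promoter windows (GRCh38.p14, 250 bases before to 50 after a gene's start) were read for the 5 members that had one, CDX2, HNF4A, MUC2, LGALS4 and CEACAM5. Those of the members with signal, CDX2 and MUC2, are shown with each CpG in capitals. The CDX2 window (minus strand, chr13:27969266-27969565) held 16 CpG and the MUC2 window (plus strand, chr11:1074624-1074923) held 9.
CDX2: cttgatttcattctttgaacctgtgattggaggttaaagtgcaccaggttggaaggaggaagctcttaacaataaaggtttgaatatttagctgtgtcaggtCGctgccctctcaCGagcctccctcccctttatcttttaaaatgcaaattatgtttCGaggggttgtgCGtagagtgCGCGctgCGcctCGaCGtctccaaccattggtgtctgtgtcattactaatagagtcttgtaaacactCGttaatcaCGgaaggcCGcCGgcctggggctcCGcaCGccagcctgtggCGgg
MUC2: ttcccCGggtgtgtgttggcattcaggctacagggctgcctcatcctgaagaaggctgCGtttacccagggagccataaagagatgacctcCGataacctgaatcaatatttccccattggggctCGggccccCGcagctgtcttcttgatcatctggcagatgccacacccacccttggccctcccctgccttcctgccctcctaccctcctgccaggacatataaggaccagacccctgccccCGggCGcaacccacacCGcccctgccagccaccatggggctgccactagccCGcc
The median over all 35116 windows was 14 CpG, so CDX2 lay just above it, with fewer CpG in 52.5% of windows, and MUC2 below it, with fewer in 41.6%. HNF4A held 11 and 9 CpG in its 2 windows, LGALS4 held 7 and CEACAM5 held 2. The letters TTTAT, the core of the sequence that caudal proteins such as CDX1 and CDX2 recognise, were found on either strand in the windows of CDX2, MUC2 and CEACAM5, 3 of the 5 members. Of all windows 34.9% held them. AGATAA, searched for as a GATA site, was found for 2 of the 5 members, CDX2 and HNF4A, and in 10.3% of all windows. These shares count windows and not genes, and 5 members are too few to be set apart from them. DNA methylation of these windows was not analysed here.

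Levels are given as the scanner's processed signal in percent of the array's 75th percentile, which had a signal of 822 for 5-aza-dC and between 245 and 338 elsewhere. A probe was taken as expressed where the scanner software marked it as well above background, and the lowest level so marked was 3.14% with 5-aza-dC and lay between 4.34 and 5.41% otherwise. All siRNA arrays lay on 1 slide read in 1 scan, with mock in row 1 and TSA in row 2. Control siRNA was in columns 1 and 2 and siUHRF1 in columns 3 and 4, so position on the slide cannot be told apart from either treatment. The 5-aza-dC array had a slide and a scan of its own, so slide and treatment cannot be told apart for 5-aza-dC. UHRF1 itself (A_23_P208880) stood at 644 and 645% on the siCONT arrays, 128 and 105% with siUHRF1, 731 and 728% with TSA, 79.1 and 65.0% with siUHRF1 + TSA, and 1287% with 5-aza-dC. Arrays of the same group differed by a median of 0.06 on the log2 scale for siCONT and 0.07 for siCONT + TSA, but by 0.25 for siUHRF1 and 0.17 for siUHRF1 + TSA, the groups with different siRNAs. Of 11 epithelial markers, 4 to 7 were above background per array, with KRT8, KRT18, CLDN3 and CLDN7 above it on every array, CDH1 on none and EPCAM on 1 siCONT array (10.4%) and the 5-aza-dC array (92.5%). The defining blood marker HBB and the endothelial marker PECAM1 were below background on all 9 arrays.

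Of the 10 genes, 4 were expressed on both siCONT arrays: CDX1, CDX2, MUC2 and TFF1. By the same measure 45.3% of all genes on the array were expressed there. The other 6 members (HNF4A, VIL1, TFF3, LGALS4, CEACAM5 and CDH17) were below background on both siCONT arrays. None of these 6 was above background on both siUHRF1 arrays or on both siCONT + TSA arrays, against 1.41% and 0.907% of all genes that were below background in siCONT. TFF3 alone of the 6 was above it on both siUHRF1 + TSA arrays, against 3.54% of such genes, and TFF3 alone was above it on the 5-aza-dC array, against 16% of such genes. The count of 1 in 6 is too small to be set apart from these shares. HNF4A, VIL1, LGALS4, CEACAM5 and CDH17 were below background on every array, as were 40.4% of all genes.

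**Figure D1:**
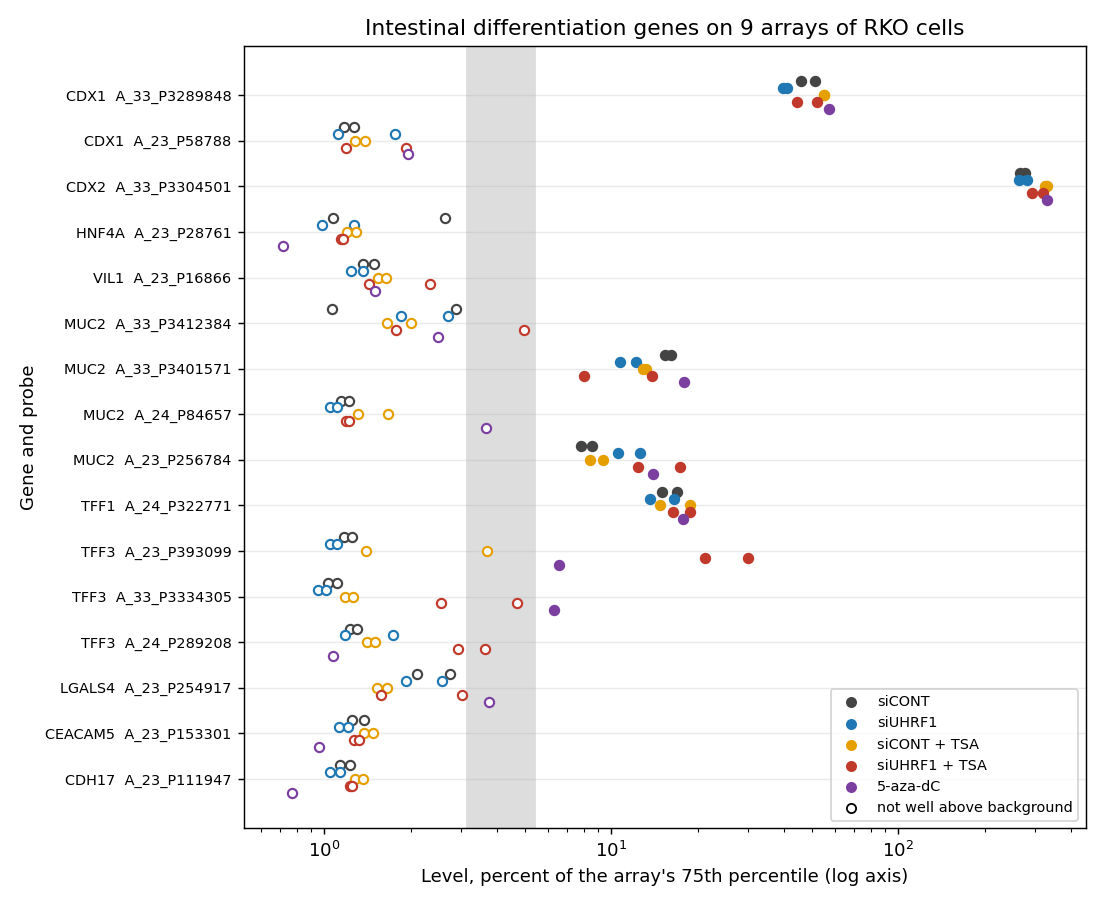
Level of each of the 16 member probes on each of the 9 arrays, in percent of the array's 75th percentile on a log axis. Filled points were well above background and open points were not; the grey band spans the lowest level called above background on the arrays (3.14 to 5.41%). CDX1, CDX2, TFF1 and a pair of MUC2 probes were above background on all arrays, and of the rest only TFF3 probes crossed it.

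Among the transcription factors, CDX2 was expressed on every array and changed little. Its probe (A_33_P3304501, hg19 chr13:28536302-28536361, minus strand) stood at 276 and 266% on the siCONT arrays, 282 and 264% with siUHRF1, 323 and 329% with siCONT + TSA, 320 and 293% with siUHRF1 + TSA and 330% with 5-aza-dC. Every array given TSA and the 5-aza-dC array lay above every siRNA array given mock. The fitted difference was small, 0.27 on the log2 scale with TSA (SE 0.096, 95% CI 0.04 to 0.50) and 0.18 with siUHRF1 + TSA (CI -0.06 to 0.41), and neither passed limma with Benjamini-Hochberg adjustment over all probes tested (adjusted p 0.13 and 0.231). With UHRF1 depletion alone the change was 0.01 (CI -0.22 to 0.24). When only the siCONT and siCONT + TSA arrays entered the fit, the difference with TSA passed (adjusted p 0.0193).

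CDX1 was expressed on every array by 1 of its 2 probes. The probe A_33_P3289848 (hg19 chr5:149563184-149563243, plus strand) stood at 51.4 and 45.7% in siCONT, 41.0 and 39.5% with siUHRF1, 55.2 and 54.9% with siCONT + TSA, 51.9 and 44.4% with siUHRF1 + TSA and 57.3% with 5-aza-dC. Both siUHRF1 arrays lay below both siCONT arrays, and both siCONT + TSA arrays lay above them. Neither difference passed the test: the log2 change was -0.27 with siUHRF1 (CI -0.55 to 0.01, adjusted p 0.581, limma) and 0.18 with TSA (CI -0.10 to 0.47, adjusted p 0.346). Under siUHRF1 + TSA the level was that of siCONT, with a log2 change of -0.01 (CI -0.29 to 0.27). The other CDX1 probe, A_23_P58788 (hg19 chr5:149563427-149563486), lies downstream of the first and stayed at 1.12 to 1.95%, below background on all 9 arrays. The levels of different probes cannot be compared with each other, so the 2 probes show only that signal was found at one place of the gene and not at the other.

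HNF4A, the third transcription factor, was not above background on any array. Its single probe (A_23_P28761, hg19 chr20:43036102-43042379, plus strand, spanning an intron) lay between 0.715% on the 5-aza-dC array and 2.64% on siCONT array 2. This probe stands for 1 part of the transcript, and the limit it sets is the lowest level called above background.

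The genes of the brush border, of cell adhesion and of the cell surface were below background in every condition. The VIL1 probe (A_23_P16866, hg19 chr2:219314095-219314154) lay between 1.23 and 2.34%, with its highest value on siUHRF1 + TSA array 2. The LGALS4 probe (A_23_P254917, hg19 chr19:39292766-39292983) lay between 1.53 and 3.73%, with its highest value on the 5-aza-dC array, where it was not well above background. The CEACAM5 probe (A_23_P153301, hg19 chr19:42224984-42225043) lay between 0.958 and 1.48%, and the CDH17 probe (A_23_P111947, on chromosome 8) between 0.773 and 1.36%. None of these 4 genes entered a test, since each was below background on all arrays. A level under the detection limit does not show that a gene had no transcript.

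TFF1 was expressed at much the same level in all conditions. Its probe (A_24_P322771, hg19 chr21:43783440-43783499, minus strand) stood at 16.9 and 15.0% in siCONT, 13.6 and 16.5% with siUHRF1, 18.9 and 14.8% with siCONT + TSA, 16.5 and 18.8% with siUHRF1 + TSA and 17.8% with 5-aza-dC. The groups overlapped in each comparison of siRNA arrays. The fitted log2 change was -0.09 with siUHRF1 (CI -0.50 to 0.32), 0.07 with TSA (CI -0.34 to 0.48) and 0.14 with siUHRF1 + TSA (CI -0.27 to 0.55).

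TFF3, in contrast, was below background with control siRNA and rose with UHRF1 depletion plus TSA. The probe A_23_P393099 read 1.17 and 1.25% on the siCONT arrays, 1.04 and 1.11% with siUHRF1, 3.67 and 1.40% with siCONT + TSA, 30 and 21.2% with siUHRF1 + TSA and 6.56% with 5-aza-dC. Only the siUHRF1 + TSA arrays and the 5-aza-dC array were well above background, and no array of another group exceeded 6.56%. For this probe and on this scale, the order of the detected levels was thus siUHRF1 + TSA, then 5-aza-dC. The siCONT, siUHRF1 and siCONT + TSA groups were all below background and without an order. Before division by the 75th percentile, the signals of the probe were 84.5 and 58.0 with siUHRF1 + TSA and 53.9 with 5-aza-dC, on another slide. The probe A_33_P3334305, given below, had its highest level with 5-aza-dC. Against the detection limit, TFF3 was at least 5.04-fold higher in siUHRF1 + TSA than in siCONT, at least 5.61-fold higher than in siUHRF1 and at least 4.66-fold higher than in siCONT + TSA. For these limits each array of the dim group was given the higher of its lowest detected level and the level of the probe. Leaving out 1 array in turn, the first limit lay between 4.23 and 6.00. The siRNAs differed by 0.50 on the log2 scale under TSA, with siUHRF1-1 higher.

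The probe A_23_P393099 entered the siRNA tests only because it was above background in siUHRF1 + TSA, the group where it is high, so its fitted changes and p-values describe a probe selected through that group. Its fitted change was 4.38 on the log2 scale for siUHRF1 + TSA against siCONT (SE 0.43, adjusted p 0.00195, limma) and 3.48 against siCONT + TSA (SE 0.43, adjusted p 0.0105). The dim groups were below background, so the size of these fitted values is uncertain: the first was 1.07 under normexp background correction. The second call was lost under normexp (0.36, adjusted p 0.393) and when only the compared groups were fitted (adjusted p 0.0737). It was also lost without siUHRF1 + TSA array 1 (3.23). The first kept its call in all 18 limma alternatives in which the probe was tested (adjusted p 0.0249 under normexp). By the methods' t-test, however, no member probe passed in that comparison after adjustment. UHRF1 depletion alone gave -0.17 (CI -1.21 to 0.87) and TSA alone 0.90 (CI -0.14 to 1.95, adjusted p 0.225). The effect of UHRF1 depletion was larger with TSA than without it by 3.65 (SE 0.61), but this interaction did not pass (unadjusted p 0.000835, adjusted p 0.131). It passed without siCONT + TSA array 1 (4.35, adjusted p 0.0124) or array 2 (2.95, adjusted p 0.0331), and array 1 was the one that read 3.67%.

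The other TFF3 probes gave less signal. A_33_P3334305 read 1.03 and 1.11% in siCONT, 0.948 and 1.01% with siUHRF1, 1.18 and 1.26% with siCONT + TSA, 2.56 and 4.71% with siUHRF1 + TSA and 6.33% with 5-aza-dC. A_24_P289208 read 1.23 and 1.30%, 1.74 and 1.18%, 1.41 and 1.496%, 3.61 and 2.93%, and 1.07% in the same order. Both probes were highest among the siRNA arrays on the siUHRF1 + TSA arrays, but neither was well above background there, so the rise of TFF3 in that group rests on A_23_P393099. With 5-aza-dC, A_23_P393099 and A_33_P3334305 were above background and A_24_P289208 was not.

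TFF2, the trefoil gene that lies between the others on the chromosome, read 5.28 and 3.56% in siCONT, 2.65 and 5.10% with siUHRF1, 5.68 and 4.52% with siCONT + TSA, 8.30 and 5.75% with siUHRF1 + TSA and 8.54% with 5-aza-dC. It was well above background only on siUHRF1 + TSA array 1 and the 5-aza-dC array. The neighbouring genes of the cluster therefore had different patterns, with TFF1 above background throughout and TFF3 and TFF2 below it in siCONT.

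**Figure D2:**
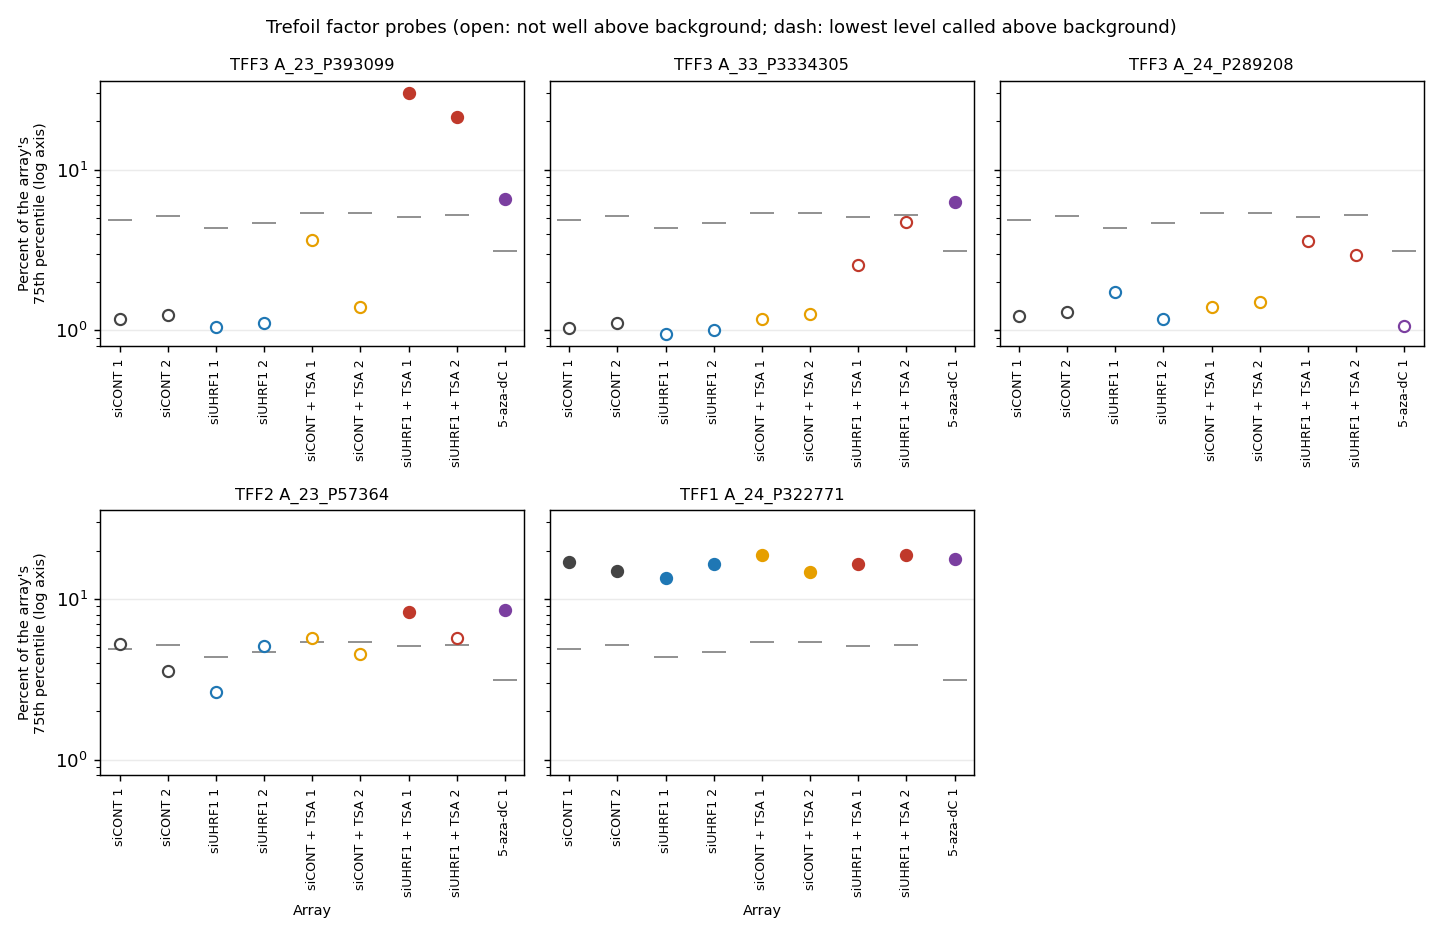
Levels of the 3 TFF3 probes, the TFF2 probe and the TFF1 probe on each array, in percent of the array's 75th percentile on a log axis; filled points were well above background, open points were not, and the dash is the lowest level called above background on that array. TFF3 A_23_P393099 read 30 and 21.2% on the siUHRF1 + TSA arrays and at most 3.67% on the other siRNA arrays, while TFF1 stayed between 13.6 and 18.9%.

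Over the 8 siRNA arrays, the genes whose log2 levels were most like those of TFF3 A_23_P393099 among 17837 genes were PALM (Pearson r 0.989, Spearman rho 0.786), LGALS9C (0.983 and 0.952) and STK31 (0.982 and 0.857). PALM encodes paralemmin, a membrane protein, and LGALS9C is a galectin with near-identical copies, whose signal cannot be assigned to 1 of them. These correlations describe arrays that share slide and groups, and they rest on the siUHRF1 + TSA arrays standing apart from the others. KRT19, a keratin of simple epithelia, was above background on the same arrays as TFF3, at 24.9 and 18.2% with siUHRF1 + TSA and 66.5% with 5-aza-dC. The summed level of the 11 epithelial markers was 4944 and 4994% in siCONT, 5425 and 6284% with siUHRF1 and 5598 and 5451% with siCONT + TSA. It was 9445 and 7758% with siUHRF1 + TSA and 4763% with 5-aza-dC. Most of this sum was KRT18, at 4294 and 4365% in siCONT and 8356 and 6920% with siUHRF1 + TSA. The summed level of 4 endothelial markers was 16.9 to 28.4% on the other siRNA arrays and 69.4 and 56.1% with siUHRF1 + TSA. In the latter VWF alone made up 58.8 and 47.3%, CDH5 stood at 7.60 and 6.09%, within its range on the other siRNA arrays (5.23 to 11.3%), and PECAM1 and KDR were below background on every array. The part of either in the TFF3 result was not tested. In RNA from whole cultures, more cells that express a gene and more RNA per cell cannot be told apart.

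MUC2 was expressed on every array by a pair of its 4 probes, whose fitted changes had opposite signs with UHRF1 depletion. A_23_P256784 stood at 7.82 and 8.57% in siCONT, 10.5 and 12.6% with siUHRF1, 9.39 and 8.42% with siCONT + TSA, 12.4 and 17.4% with siUHRF1 + TSA and 13.96% with 5-aza-dC. All 4 arrays with UHRF1 depletion lay above all 4 arrays with control siRNA. The log2 change was 0.49 with siUHRF1 (CI 0.04 to 0.94, adjusted p 0.513, limma), 0.12 with TSA (CI -0.33 to 0.57), 0.84 with siUHRF1 + TSA (SE 0.19, CI 0.39 to 1.29, adjusted p 0.0235) and 0.72 for siUHRF1 + TSA against siCONT + TSA (adjusted p 0.112). Only the change with siUHRF1 + TSA against siCONT passed, and it failed under 7 of 19 alternatives, among them leaving out siCONT array 1 (0.78, adjusted p 0.133), siCONT array 2 (0.91, adjusted p 0.0967), siCONT + TSA array 2 (0.84, adjusted p 0.0521) or siUHRF1 + TSA array 2 (0.60, adjusted p 0.0671).

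A_33_P3401571 stood at 15.3 and 16.2% in siCONT, 12.2 and 10.68% with siUHRF1, 13.2 and 12.9% with siCONT + TSA, 8.05 and 13.8% with siUHRF1 + TSA and 17.9% with 5-aza-dC. Every array of the other siRNA groups lay below both siCONT arrays. Its log2 change was -0.46 with siUHRF1 (CI -1.05 to 0.13), -0.27 with TSA (CI -0.86 to 0.32) and -0.58 with siUHRF1 + TSA (CI -1.17 to 0.01, adjusted p 0.139, limma), and none passed. The TSA difference passed when only the siCONT and siCONT + TSA arrays were fitted (-0.27, adjusted p 0.024), and that with siUHRF1 + TSA passed without siUHRF1 + TSA array 2 (-0.97, adjusted p 0.0133). The remaining MUC2 probes were below background on all 9 arrays: A_33_P3412384 (hg19 chr11:1080924-1080983) lay between 1.06 and 4.98% and A_24_P84657 (hg19 chr11:1095153-1095212) between 1.04 and 3.66%. With 4 probes that differ in direction and detection, no single direction can be given for MUC2. The genes most like A_23_P256784 over the 8 siRNA arrays were IRAG1 (r 0.993, rho 1), PRKCSH (0.984 and 0.976) and NUAK2 (0.982 and 0.976).

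**Figure D3:**
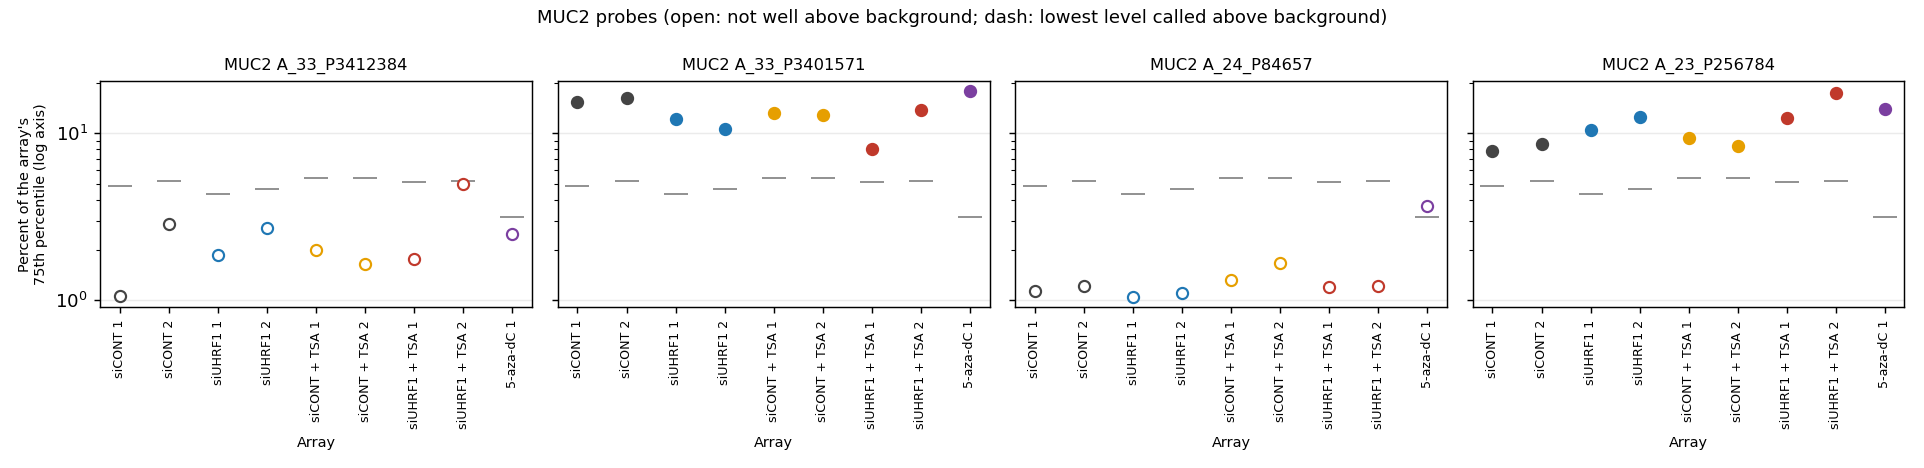
Levels of the 4 MUC2 probes on each array, in percent of the array's 75th percentile on a log axis; filled points were well above background, open points were not, and the dash is the lowest level called above background on that array. A_23_P256784 was higher on the siUHRF1 + TSA arrays (12.4 and 17.4%) than in siCONT (7.82 and 8.57%), whereas A_33_P3401571 was lower (8.05 and 13.8% against 15.3 and 16.2%).

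Across the array, few probes passed with UHRF1 depletion alone and many with the combination. Of the 16 member probes, 6 entered the siRNA tests, and 1 of these, A_23_P393099 of TFF3, did so only through siUHRF1 + TSA. With siUHRF1, 0 of the 6 passed limma, where 0.557% of all 23703 probes did. At an unadjusted p below 0.05 there was 1 of the 6 by limma (8.91% of all probes) and 1 by the methods' t-test (7.79%), and 0 by that test after adjustment (0%). With siCONT + TSA, 0 of the 6 passed limma, where 10.4% of all probes did. Unadjusted, there was 1 by limma (28.9% of all probes) and 2 by the t-test (41.4%), and 0 by the t-test after adjustment (18.3%). With siUHRF1 + TSA against siCONT, 2 passed (TFF3 and MUC2 A_23_P256784), both higher. Of all probes 23.2% passed in either direction, 3553 higher and 1956 lower, and 2 of 6 are too few to be set apart from this. Unadjusted, there were 2 by limma (37.9% of all probes) and 1 by the t-test (29.8%), and 0 by the t-test after adjustment (1.04%). With siUHRF1 + TSA against siCONT + TSA, 1 passed (TFF3), where 3.54% of all probes passed. Unadjusted, there were 2 by limma (17.4%) and 1 by the t-test (15.3%), and 0 by the t-test after adjustment (0%). The interaction was passed by 0 of the 6, where 0.38% of all probes passed, and 1 had an unadjusted p below 0.05, as had 4.92% of all probes.

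**Figure D4:**
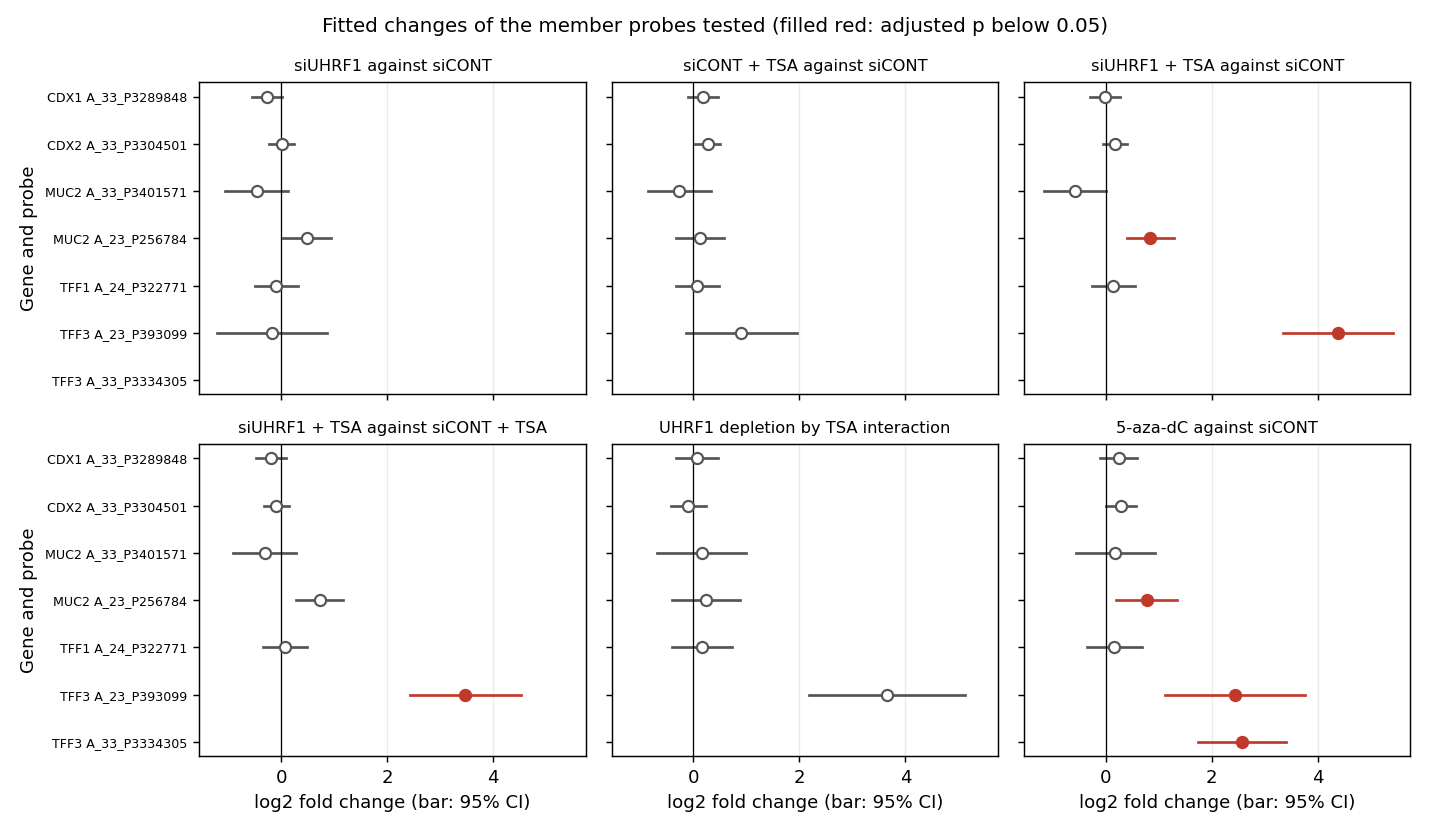
Fitted log2 change (x axis) with its 95% confidence interval (bar) of each member probe tested, in the 6 comparisons; filled red points passed limma at an adjusted p below 0.05 and open points did not. TFF3 A_23_P393099 had the largest fitted changes, 4.38 for siUHRF1 + TSA against siCONT and 3.48 against siCONT + TSA, and CDX1, CDX2 and TFF1 stayed within 0.30 of 0.

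With 5-aza-dC, 3 of the 7 member probes tested passed, all higher than siCONT. Of all 27142 probes tested 48.9% passed in either direction, 6547 higher and 6722 lower. The 3 member probes stand for TFF3 and MUC2 only, too few to be set apart from the share of all probes in either direction or of those called higher. Unadjusted, there were also 3, beside 56.2% of all probes. They were TFF3 A_23_P393099 (2.44, SE 0.54, adjusted p 0.0129, limma), TFF3 A_33_P3334305 (2.57, SE 0.34, adjusted p 0.00184) and MUC2 A_23_P256784 (0.77, SE 0.23, adjusted p 0.037). A_33_P3334305 was tested only because the 5-aza-dC array itself was above background, the single array on which it was, so it had to differ and its p is no support. Both TFF3 probes were below background in siCONT, and against the detection limit they were at least 1.31-fold and at least 1.27-fold higher. CDX2 (0.29, CI -0.003 to 0.58), CDX1 (0.24, CI -0.11 to 0.59), TFF1 (0.16, CI -0.35 to 0.68) and MUC2 A_33_P3401571 (0.18, CI -0.57 to 0.93) were not called. The single array has no spread of its own, and the spread of the siRNA groups was taken for it. These directions depend on the scale: with scaling on the spike-in probes the median of all probes fell by 1.68 on the log2 scale and CDX1, CDX2, TFF1 and both MUC2 probes were called lower, by 0.92 to 1.53, all of them less than the median probe, while TFF3 A_23_P393099 read 0.74 (adjusted p 0.249) and A_33_P3334305 0.88 (adjusted p 0.0404). The MUC2 call was lost or reversed under 8 of 19 alternatives, among them quantile normalization (0.45, adjusted p 0.121) and the fits without siCONT array 1 or 2 (adjusted p 0.126 and 0.0847) or siCONT + TSA array 1 or 2 (0.0628 and 0.0634), and CDX2 was called under the median shift (0.40, adjusted p 0.0371) and another prior (adjusted p 0.0475). With normexp background correction all 3 calls were lost, and the values of both TFF3 probes and of MUC2 A_23_P256784 turned to between -0.39 and -0.13. The summed level of 9 mesenchymal markers was 5654% with 5-aza-dC, against 182 to 188% on the mock arrays and 678 to 753% on the TSA arrays. VIM alone made up 5055% of the first, and the part of these markers in these results was not tested.

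The members were set beside 7 lists of other intestinal genes, 130 in all, of which 128 are on the array. Of these 128 genes, 43 were above background on both siCONT arrays and 52 on none of the 9, among them 12 of 23 absorptive enterocyte and colonocyte genes, 11 of 21 goblet and secretory genes and 10 of 16 enteroendocrine and Paneth genes. Above background on both siCONT arrays were 11 of 22 intestinal transcription factors, 8 of 16 brush border genes, 8 of 15 stem cell genes, 7 of 15 carcinoembryonic antigen and galectin relatives, 5 of 21 goblet and secretory genes, 2 of 23 absorptive genes and 2 of 16 enteroendocrine and Paneth genes, beside 45.3% of all genes. Of 51 list genes tested, 2 were called higher and 0 lower with siUHRF1, against 0.611% and 0.034% of all 17838 genes tested. With siCONT + TSA, 8 were higher and 3 lower, against 6.996% and 3.87% of all genes. With siUHRF1 + TSA, 16 were higher and 7 lower, which is 31.4% and 13.7% of the 51, against 16.1% and 8.08% of all genes. The median log2 change of the 51 was 0.10 and that of all genes 0.07. A list gene that is above background only in a treated group had to differ, so these counts and the p-values of such genes are a description.

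Goblet and secretory genes rose in 3 of 7 tested and fell in 0 with siUHRF1 + TSA, beside 16.1% and 8.08% of all genes. Among them BCAS1, a gene of goblet cells and other cell types, stood at 3.66 and 2.12% in siCONT, below background, 19.2 and 13.7% with siUHRF1, 9.83 and 9.25% with siCONT + TSA and 53.5 and 41.5% with siUHRF1 + TSA. It was at least 9.42-fold higher in siUHRF1 + TSA than in siCONT (adjusted p 0.000672, limma). These values and all BCAS1 calls given here are of the probe A_33_P3330911. Another BCAS1 probe, A_23_P17420, was above background only on siUHRF1 + TSA array 1 (10.4%) and on the 5-aza-dC array (14.4%). KLK1, tissue kallikrein, a secreted protease, was below background in siCONT and stood at 32.8 and 20.7% with siUHRF1 + TSA, at least 5.21-fold higher (adjusted p 0.00031). Both genes were also called with UHRF1 depletion alone (BCAS1 adjusted p 0.0271, KLK1 adjusted p 0.0218, limma) and with TSA alone (0.0209 and 0.00977). KLK1 was near the detection limit there, at 5.62 and 6.95% with siUHRF1 and 6.78 and 6.63% with TSA. Against that limit KLK1 was at least 1.25-fold and 1.34-fold higher than in siCONT, and BCAS1 at least 3.25-fold and 1.91-fold. Both genes entered the tests only through treated groups, so these p-values set up no contrast with TFF3. The calls with UHRF1 depletion alone were lost under 9 and 8 of 19 alternatives, including the fit without either siUHRF1 array, and those with TSA alone were lost without either siCONT + TSA array. With 5-aza-dC, KLK1 was below background at 1.78%, and BCAS1 stood at 70.0%. Of the other mucin genes, MUC5AC and MUC5B were below background on all siRNA arrays and MUC6 stood at 20.4 to 35.2% on all 9 arrays by its brightest probe. Another MUC6 probe, A_33_P3304172, was above background only with siUHRF1 + TSA (11.8 and 18.0%) and on siUHRF1 array 2 (6.74%).

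Enteroendocrine and stem cell genes rose in 1 of 4 and 2 of 9 tested with siUHRF1 + TSA, beside 16.1% of all genes. CCK, the hormone cholecystokinin, was below background in siCONT and stood at 79.9 and 13.8% with siUHRF1 + TSA, at least 6.63-fold higher (adjusted p 0.0162, limma; 2.75 to 15.97 with 1 array left out), and at 17.2 and 5.35% with siUHRF1, where only the first array was above background. The siRNAs thus differed more for CCK than for TFF3. ASCL2, a transcription factor of crypt stem cells, stood at 12.6 and 16.7% with siUHRF1 + TSA and was at least 2.89-fold higher than in siCONT (adjusted p 0.0135). Both CCK and ASCL2 entered the siRNA tests only through siUHRF1 + TSA, the group where they are high, so these p-values describe genes selected through that group. The CCK call was lost without siCONT array 1 or 2, and the ASCL2 call without any 1 array of siCONT or siUHRF1 + TSA. With 5-aza-dC, CCK (367%), ASCL2 (103%) and SOX9 (72.6%), a transcription factor of crypt cells, were at least 73.3-fold, 20.6-fold and 14.5-fold higher than in siCONT.

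Intestinal transcription factors beside CDX1, CDX2 and HNF4A fell in 4 of 11 tested with siUHRF1 + TSA and rose in none. The count of falls was 1 to 5 under the other scalings. Of all genes tested in this comparison, 8.08% fell and 16.1% rose. HNF4G, a relative of HNF4A, fell by 1.17 on the log2 scale (SE 0.30, adjusted p 0.038, limma), from 30.8 and 33.9% in siCONT to 10.6 and 19.5%, and this call was lost under 10 of 19 alternatives, including the fit without either siCONT array. With TSA alone HNF4G stood at 13.03 and 9.67%. These HNF4G values are of the probe A_33_P3286492, and its other probes, A_23_P251453 and A_24_P852601, were below background on every array. VDR, the vitamin D receptor, fell by 0.83 (SE 0.087, adjusted p 0.00236), from 221 and 218% to 126 and 121%, and was called under all 19. With TSA alone VDR already stood at 148 and 153% (-0.54, adjusted p 0.0194, limma), a call held under 12 of 19 alternatives. Among the absorptive genes, CA2, a carbonic anhydrase, fell by 0.99 (adjusted p 0.00426), from 306 and 316% to 163 and 150%. With TSA alone CA2 already stood at 204 and 200% (-0.62, adjusted p 0.0332, limma), a call held under 12 of 19 alternatives. Of 9 brush border genes tested, 5 rose and 1 fell, the latter being PLS1, an actin bundler like VIL1, by 1.03 (adjusted p 0.0254), a call lost without any 1 array of siCONT or of either TSA group. PLS1 stood at 134.1 and 133.6% in siCONT, 89.72 and 89.35% with TSA alone and 66.07 and 64.96% with siUHRF1 + TSA.

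Among relatives of CEACAM5 and LGALS4, 4 of 7 tested rose and 1 fell with siUHRF1 + TSA, beside 16.1% and 8.08% of all genes. LGALS1, a galectin, stood at 3072 and 3176% in siCONT and 12220 and 14510% with siUHRF1 + TSA, a log2 rise of 2.09 (SE 0.25, adjusted p 0.00346, limma). Most of it was present with TSA alone, where the level was 10300 and 10340% (1.72, adjusted p 0.0154), a call lost without any 1 array of siCONT or siCONT + TSA. CEACAM1 fell by 0.73 (adjusted p 0.0427), a call lost under 9 of 19 alternatives, including the fit without either siCONT array. CEACAM6, the neighbour of CEACAM5, was below background on all 9 arrays, as CEACAM5 was.

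Against siCONT + TSA, 3 of the 51 list genes were higher with siUHRF1 + TSA and 0 lower, against 3.27% and 0.577% of all genes. They were BCAS1 (2.31, adjusted p 0.0119, limma), KLK1 (1.96, adjusted p 0.0119) and LGALS7 (1.15, adjusted p 0.044), another galectin, whose call held under 5 of 19 alternatives and was lost without any 1 of the siRNA arrays. The BCAS1 and KLK1 calls were lost without either siCONT + TSA array, and that of BCAS1 also without siUHRF1 + TSA array 1. With 5-aza-dC, 26 of 69 list genes were higher and 10 lower, against 25.4% and 23.9% of all genes, and under spike-in scaling 10 were higher and 39 lower. The largest falls there were of RNF43, a brake on Wnt receptors (-2.12, adjusted p 0.0121), GATA4, a transcription factor of the proximal gut (-1.82, adjusted p 0.00185), and CEACAM1 (-1.79, adjusted p 0.00222), each called in every alternative run. GATA4 has 3 more probes: A_33_P3360363 read 11.5 and 12.4% in siCONT and 5.32% with 5-aza-dC, whereas A_23_P384761 read 22.3 and 22.7% against 18.2% and A_33_P3293456 read 6.74 and 4.53% against 7.34%, so its probes disagree.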

How the data were processed

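RKO total RNA was measured on 9 Agilent 1-colour arrays in 5 groups. The authors extracted spot intensities with Agilent Feature Extraction 10.7 (per the labels; 10.7.3.1 per the file headers), and the deposited intensity used here, the processed signal, is background-subtracted and detrended, has surrogate values for dim spots and is not normalized between arrays. The deposited value table holds the same intensities rounded. The paper names GeneSpring GX, and how the RKO arrays were normalized and filtered is not given in the sources used here.

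From each array's log2 signals the 75th percentile over non-control spots was subtracted. Outlier-flagged spots were dropped (0 of the members' spots), and repeat spots of a probe were averaged. Probes well above background on every array of at least 1 group were tested with limma 3.58.1 (lmFit, eBayes) in R 4.3.3, on the 8 siRNA arrays in 4 groups, or on all 9 arrays for 5-aza-dC. The threshold was an adjusted p below 0.05 (Benjamini-Hochberg, over all probes tested). The procedure was tested on simulated data. Genes were named as in the array files, or by RefSeq symbol for the 28174 probes whose accession matched. Coordinates of probes are hg19, per the file headers, and promoters GRCh38.p14.

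Every member probe is named. List genes were named if called with all treated arrays on 1 side of all controls, at most the 5 largest rises and 5 largest falls for siUHRF1 + TSA against siCONT and 3 of each elsewhere; TFF2, MUC5AC, MUC5B, MUC6, CEACAM6 and KRT19 were chosen after their values were seen. The probe of highest mean signal stood for a list gene. The members and lists were chosen with earlier results of these data known. No source says that the arrays of a group came from separate cultures, so p-values measure only the spread between these arrays, and the number of arrays limits the precision. Alternatives were normexp (offset 50), quantile, median and spike-in scaling, other filters, outliers kept, the value table, a replicate block, only the groups compared, each array left out, another prior, and the methods' t-test. The t-test gave counts of called probes only, so the numbers of alternatives given for a gene or probe leave it out.

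Replicate numbers did not pair the samples of all groups. Deviations of same-numbered arrays correlated at 0.562 between siUHRF1 and siUHRF1 + TSA, which share their siRNAs, and at -0.064 to 0.084 between the other groups.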

Additional observations from a re-analysis of the deposited data

How the results depend on the processing

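Of 689 recomputed member values (37 values, each under up to 19 alternatives), 657 kept their direction and side of the threshold where either was called, 17 lost the call, 7 gained one and 8 reversed; 39 values never called changed sign. The cause of these changes was not tested. TFF3 A_23_P393099 entered the siRNA tests only through siUHRF1 + TSA, the group where it is high, so its calls are a description. The stricter filter did not test it. In siUHRF1 + TSA against siCONT the probe kept its call in all 18 limma alternatives in which it was tested (1.07 to 4.63). In that comparison no member probe passed the methods' t-test after adjustment.

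Counts of called member probes moved as follows. With siUHRF1 (0), an unadjusted p below 0.05 gave 1 and the methods' t-test, unadjusted, 1. With siCONT + TSA (0), these gave 1 and 2, and fitting only the groups compared 2. With siUHRF1 + TSA against siCONT (2), normexp gave 1, the stricter filter, which no longer tested TFF3, 1, only the groups compared 1, no filter 3, the t-test 1 unadjusted and 0 adjusted, and leaving out 1 array 1 to 2. Against siCONT + TSA (1), normexp, the stricter filter, only the groups compared and the adjusted t-test gave 0, an unadjusted p gave 2, and leaving out 1 array 0 to 1. The interaction (0) gave 1 unadjusted and 0 to 1 with 1 array left out. With 5-aza-dC (3), normexp gave 0, spike-in scaling 6, no filter 6, the median shift 4, quantile normalization and the stricter filter 2, and leaving out 1 array 2 to 3. The replicate block gave 0, 0, 2, 1, 0 and 3 in the same order and changed no member's call. Of the groups, siUHRF1 and siUHRF1 + TSA share an siRNA between arrays of the same number, and the others share only a number.

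The reversed values were all of 5-aza-dC against siCONT. Under normexp they were -0.22 for MUC2 A_23_P256784, -0.39 for TFF3 A_23_P393099 and -0.13 for TFF3 A_33_P3334305. Under spike-in scaling they were -0.92 for MUC2 A_23_P256784, -1.51 for MUC2 A_33_P3401571, -1.53 for TFF1, -1.45 for CDX1 and -1.41 for CDX2. Other scalings moved the median of all probes by over 0.1 on the log2 scale: spike-in scaling gave -1.68 for 5-aza-dC, -0.12 for TSA and -0.11 for siUHRF1 + TSA, normexp -0.29 for 5-aza-dC and 0.15 for TSA, and the median shift 0.12 for 5-aza-dC. Spike-in scaling turned the split of called probes (higher, lower) from 3553 and 1956 to 1686 and 1680 for siUHRF1 + TSA, from 1540 and 936 to 301 and 576 for TSA, and from 6547 and 6722 to 1830 and 21373 for 5-aza-dC. List genes with siUHRF1 + TSA went from 16 higher and 7 lower to 11 and 4 under spike-in scaling, 9 and 3 under normexp and 14 and 10 under quantile normalization. A slide or scan block could not be fitted, since the siRNA arrays share 1 slide and scan. Signal over background limits the 5 genes that no array detected.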
